A study of Rattus norvegicus with 22 samples.

Results

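Splicing and RNA-binding factor genes were taken as every probe set with 1 annotated gene symbol that starts with Hnrnp, Srsf, Snrp, Lsm, Sf3 or Rbm. The rule found 101 of the 15866 probe sets tested, from 74 of the 10411 genes with a symbol. They comprised 25 probe sets of 16 Hnrnp genes, 12 of 7 Srsf genes, 8 of 8 Snrp genes, 11 of 8 Sf3 genes, 11 of 10 Lsm genes and 34 of 25 Rbm genes. No filter on low values was applied, so all 101 entered each test. A further 11 probe sets whose annotation gave several symbols were left out, among them those of Hnrnpk, Srsf3 and Lsm6 and some of Snrpn.

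RNA was measured on 22 single-colour arrays of Wistar rat tissue, 1 array per sample. Pregnant dams had been given retinoic acid at 12 mg/kg/day (RA), the calcium sensitiser EMD 82571 at 50 or 150 mg/kg/day (EMD50 and EMD150, called MSC1096199 in the design text) or vehicle (control). The tissues were whole embryo at gestational day 12, embryo liver and embryo bone at day 20, and maternal liver at days 20 and 12, and each of these 5 strata held 1 control, 1 EMD50 and 1 EMD150 array. Each day 20 stratum held 1 RA array and each day 12 stratum held 2, coded RA5 and RA56, and dosing is given as days 6 to 11 and 6 to 17 in the protocol but only as days 6 to 17 in the design text. The labels explain neither the RA codes nor pooling, and name no dam or litter, so p-values measure the spread between these samples only.

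Nuclear transcripts are spliced by the spliceosome, which is built from small nuclear RNAs and proteins. The Snrp genes encode the Sm ring and the specific proteins of the U1 and U2 particles, several Lsm genes encode the related rings that sit on U6 RNA or act in RNA decay, and the Sf3 genes encode the U2-bound complex that recognises the branch point. SR proteins (Srsf) bind exons and favour their inclusion, hnRNP proteins (Hnrnp) coat new transcripts and often favour skipping, and the Rbm genes are a mixed group that share RNA-recognition motifs. Many genes of these families are known to make several RNA forms, some of them with retained introns or poison exons that limit their own protein.

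The values were log2 probe set values, and the array medians over all probe sets ran from 8.09 to 8.22. Marker genes were checked against the labels. A list of 24 hepatocyte genes averaged 11.82 to 12.02 in embryo liver and 13.07 to 13.23 in maternal liver, against 7.33 to 8.74 in embryo bone and 7.46 to 8.61 in whole embryo. A list of 21 skeletal muscle genes averaged 10.10 to 10.94 in embryo bone. The same list stood at 9.09 in the RA maternal liver of day 20, against 7.04, 6.96 and 7.09 in the control, EMD50 and EMD150 livers of that day, and 18 of its 21 genes were higher there than in control. The hepatocyte list stood at 8.61 and 8.55 in the RA whole embryos, against 7.83, 7.60 and 7.46 in the control, EMD50 and EMD150 embryos, and at 8.74 in RA bone and 8.72 in control bone, against 7.33 in EMD50 bone and 7.56 in EMD150 bone. The EMD50 bone array also had a GAPDH 3' minus 5' probe difference of 2.72, against 0.568 to 0.859 on every other array.

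The promoters of 4 genes that are described below as higher in RA arrays are shown because Lsm3, Lsm5 and Lsm8 sit in 1 protein ring and Hnrnpa3 has 4 probe sets that moved together. Each runs from 250 bases before to 50 bases after the RefSeq start site in assembly GRCr8, 5' to 3' on the gene's strand. Hnrnpa3 lies at chr3:80985684-80985983 on the plus strand, Lsm3 at chr4:125577935-125578234 on the plus strand, Lsm5 at chr4:87284427-87284726 on the minus strand and Lsm8 at chr4:48271878-48272177 on the plus strand. Capitals mark matches on either strand to the CCAAT box or to the ETS core CCGGAAG.
Hnrnpa3: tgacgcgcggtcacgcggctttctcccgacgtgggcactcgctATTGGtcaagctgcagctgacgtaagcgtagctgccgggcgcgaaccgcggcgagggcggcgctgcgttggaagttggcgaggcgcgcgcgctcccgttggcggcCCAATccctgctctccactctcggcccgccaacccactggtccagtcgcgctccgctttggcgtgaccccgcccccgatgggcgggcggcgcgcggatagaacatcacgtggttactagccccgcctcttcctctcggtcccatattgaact
Lsm3: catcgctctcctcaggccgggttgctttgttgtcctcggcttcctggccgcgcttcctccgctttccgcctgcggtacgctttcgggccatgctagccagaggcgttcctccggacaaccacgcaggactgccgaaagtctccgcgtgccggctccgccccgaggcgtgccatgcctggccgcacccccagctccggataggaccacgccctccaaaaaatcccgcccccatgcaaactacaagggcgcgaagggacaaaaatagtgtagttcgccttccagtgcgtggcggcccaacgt
Lsm5: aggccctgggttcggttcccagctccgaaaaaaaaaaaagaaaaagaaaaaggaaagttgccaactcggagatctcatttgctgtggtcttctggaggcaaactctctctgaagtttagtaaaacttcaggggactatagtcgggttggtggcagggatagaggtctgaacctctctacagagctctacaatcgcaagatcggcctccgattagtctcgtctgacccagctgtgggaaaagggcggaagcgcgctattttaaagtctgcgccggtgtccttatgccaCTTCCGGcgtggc
Lsm8: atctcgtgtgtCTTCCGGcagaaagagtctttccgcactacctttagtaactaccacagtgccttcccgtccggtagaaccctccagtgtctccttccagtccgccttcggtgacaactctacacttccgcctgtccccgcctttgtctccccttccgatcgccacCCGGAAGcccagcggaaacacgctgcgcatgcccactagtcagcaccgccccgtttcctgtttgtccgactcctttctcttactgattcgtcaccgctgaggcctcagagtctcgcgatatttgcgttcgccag
With the start site at 0, the Hnrnpa3 window holds CCAAT matches that begin at -207 and -102, the Lsm5 window 1 ETS core at 37, and the Lsm8 window 2 ETS cores at -239 and -84. The Lsm3 window holds neither motif. RefSeq promoters were found for 70 of the 74 genes. The ETS core was present in 17 of these 70 (24.3%), against 9.22% of all 27457 promoters, and the CCAAT box in 34 (48.6%), against 37.7%. The motif AAGATGGCG, bound by YY1, was present in 4 (5.71%), against 1.93%, and TATAAA in 6 (8.57%), against 14.3%. The retinoic acid response element of the DR5 type (AGGTCA repeated in 1 direction after a 5-base gap) was in 0 of the 70 windows and in 3 of the 27457. A single AGGTCA was in 8 of the 70 windows (11.4%), against 15.7% of all. Matches were searched on both strands, and a window without these letters says nothing about binding.

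The splicing genes were higher in the embryo than in maternal liver, and highest in the day 12 embryo. The median over the 101 probe sets was 10.32 to 10.99 on the whole embryo arrays, 9.49 to 9.85 in embryo bone, 9.17 to 9.49 in embryo liver, and 8.65 to 8.92 and 8.78 to 8.88 in maternal liver of days 20 and 12. Over all probe sets the array medians of these strata differed by no more than the range given above. The mean was highest in whole embryo for 87 of the 101 (86.1%), against 30.5% of all probe sets, and lowest in 1 of the maternal liver strata for 34 (day 12, 33.7%, against 18%) and 53 (day 20, 52.5%, against 16.1%). In 62 (61.4%) every whole embryo array lay above every array of the other strata, which held for 11.3% of all probe sets, and in 87 (86.1%) every whole embryo array lay above every maternal liver array of day 12, against 32.2%. In tissue RNA, fewer cells of a type and less RNA per cell cannot be told apart. A list of 19 proliferation genes was also highest in whole embryo (10.53 to 10.93) and lowest in maternal liver (7.79 to 7.97). Between these, it stood higher in embryo liver (9.81 to 10.05) than in bone (9.14 to 9.42). Its part in the splicing gene levels was not tested.

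**Figure D1:**
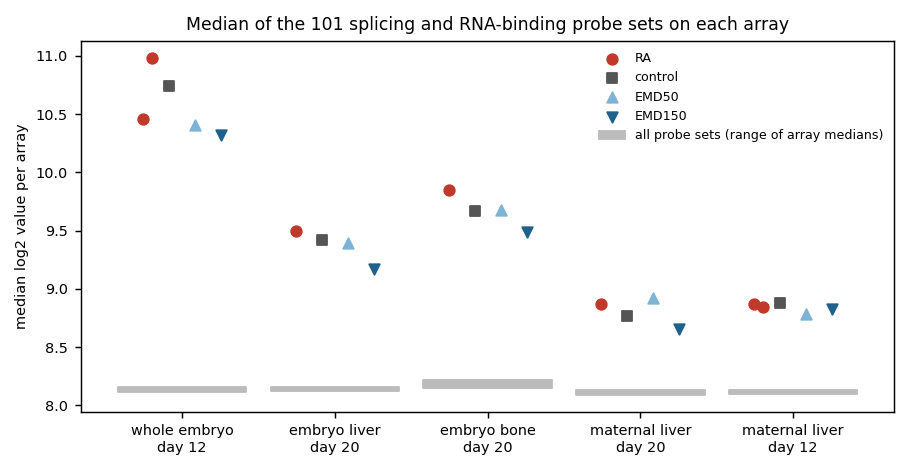
Median log2 value of the 101 splicing and RNA-binding probe sets on each of the 22 arrays, by tissue and day, with 1 point per array (red circles RA, grey squares control, light and dark blue triangles EMD50 and EMD150). Grey bars give the range of array medians over all 15866 probe sets, and the whole embryo arrays, at 10.32 to 10.99, lie above all others.

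At day 12 limma called 90 of the 101 probe sets higher in whole embryo than in maternal liver (89.1%, against 35.5% of all probe sets) and 3 lower (against 34.3%). The median difference was 1.59 on the log2 scale, against -0.04 over all probe sets. The calls covered 24 of 25 Hnrnp, 11 of 12 Srsf, 7 of 8 Snrp, all 11 Sf3, all 11 Lsm and 26 of 34 Rbm probe sets. The median differences of the families were 1.91, 1.82, 2.13, 1.59, 1.40 and 1.02 in that order.

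The largest difference belonged to Hnrnpa1, which encodes a splicing repressor and shuttling protein. Its probe set 1387872_at read 12.65, 13.33, 13.34, 13.17 and 13.08 in the RA5, RA56, control, EMD50 and EMD150 whole embryos, against 8.51, 8.35, 8.44, 8.65 and 8.54 in the maternal livers of day 12 in the same order. The groups were far apart, and embryo bone (10.55 to 11.69) and embryo liver (10.22 to 10.50) lay between them. The difference was 4.62 ± 0.16 (SE), with limma's adjusted p = 4.2e-15. The other Hnrnpa1 probe sets differed by 2.97 ± 0.15 and 1.79 ± 0.14. Rbm3, a cold-induced RNA-binding protein, averaged 11.87 ± 0.26 in whole embryo and 8.33 ± 0.18 in maternal liver (SD, n = 5 arrays each, 1 or 2 per treatment), with limma's difference 3.54 ± 0.16 (SE). Hnrnpd, an AU-rich element binding protein, was higher by 3.45 ± 0.19, Hnrnpr by 2.85 ± 0.11 and Hnrnph1 by 2.80 ± 0.12. Among core particles the leading genes were Snrpa, the U1-A protein, at 2.62 ± 0.11, Lsm2 at 2.54 ± 0.14 and Snrpb, an Sm protein, at 2.39 ± 0.12.

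Rbm47 ran the other way. It encodes an RNA-binding protein of epithelia that assists editing of apolipoprotein B transcripts. Its level was 9.03, 8.02, 8.22, 8.14 and 8.29 in the RA5, RA56, control, EMD50 and EMD150 whole embryos and 10.98, 10.60, 10.62, 10.83 and 10.36 in the maternal livers of day 12. No embryo array reached a maternal array, and limma's difference was -2.34 ± 0.17 (SE; adjusted p = 1.8e-10). Embryo bone read 8.17 to 8.56, and embryo liver, at 9.37 to 10.37, gave a difference from maternal liver of day 20 of -0.22 ± 0.19 (adjusted p = 0.40). The other 2 probe sets called lower in whole embryo had small differences, Rbm24 1375290_at at -0.31 ± 0.09 and Rbm7 1376503_a_at at -0.29 ± 0.08. These genes were not lower as a whole. The Rbm24 probe sets ran up to 1.29, at 1374056_at, and the other Rbm7 probe set stood at 0.003. Snrpn, an imprinted Sm protein gene of neurons, differed by 0.05 ± 0.08 (adjusted p = 0.62) at its only member probe set, 1388259_at. The stratum means of this probe set ran only from 7.70 to 7.94, and the Snrpn probe sets with several symbols were not looked at.

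At day 20, embryo liver had 56 probe sets called higher than maternal liver (55.4%, against 16.4% of all) and 2 lower (against 16.6%). The median difference was 0.48. Rbm3 was higher by 2.86 ± 0.18 and Hnrnpa1 1387872_at by 1.86 ± 0.18. Rbm38, an RNA-binding protein known from red cell differentiation, was 11.32, 11.52, 11.72 and 11.42 in the RA, control, EMD50 and EMD150 embryo livers and 8.87, 9.23, 8.96 and 9.03 in the maternal livers of that day. Its level in embryo liver was above that of all 18 other arrays, which reached 9.95, and limma's difference from maternal liver was 2.47 ± 0.14 (adjusted p = 1.7e-11). A list of 9 red cell genes also stood highest in embryo liver, at 11.35 to 11.67 against 8.20 to 9.48 elsewhere, and its part in the Rbm38 level was not tested. The probe sets called lower were Rbm18, at -0.72 ± 0.13, and Rbm4b, at -0.30 ± 0.10, and 1 was left without the EMD50 or RA embryo liver or the RA maternal liver of day 20.

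Embryo bone had 73 probe sets called higher than maternal liver of day 20 (72.3%, against 30.5%) and 4 lower (against 27.6%), with a median difference of 0.76. Rbm3 led again at 3.08 ± 0.18. Rbm24, a splicing regulator of heart and skeletal muscle, followed through 1374056_at, which read 10.44, 9.51, 11.07 and 8.96 in RA, control, EMD50 and EMD150 bone. In maternal liver of day 20 it read 7.49, 6.93, 6.75 and 7.001, and in embryo liver 6.84 to 7.11. The difference from maternal liver was 2.95 ± 0.27 (adjusted p = 1.6e-08) and that from embryo liver 3.03 ± 0.27. The skeletal muscle list was highest in bone as well (given above), and its part was not tested. The 3 other Rbm24 probe sets gave -0.40 ± 0.10 (1375290_at, called lower), -0.09 ± 0.12 (1375160_at) and 0.17 ± 0.11 (1375198_at) in bone against maternal liver. Rbm47 was lower in bone than in maternal liver by a log2 difference of -1.89 ± 0.19.

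Between the fetal tissues, bone had 40 probe sets called higher than embryo liver (39.6%, against 25.6%) and 8 lower (against 29.6%). Besides Rbm24, the leading ones were Hnrnpdl 1371333_at at 1.43 ± 0.15, Hnrnpa0 at 1.33 ± 0.19 and Rbms1 at 1.27 ± 0.22. Rbm38 (-1.84 ± 0.14) and Rbm47 (-1.67 ± 0.19) led the lower ones. The Hnrnp family held 16 of the 40 higher calls and the Snrp and Lsm families 1 each. Every bone array lay above every embryo liver array for 21 members (20.8%), close to the 19.1% of all probe sets.

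**Figure D2:**
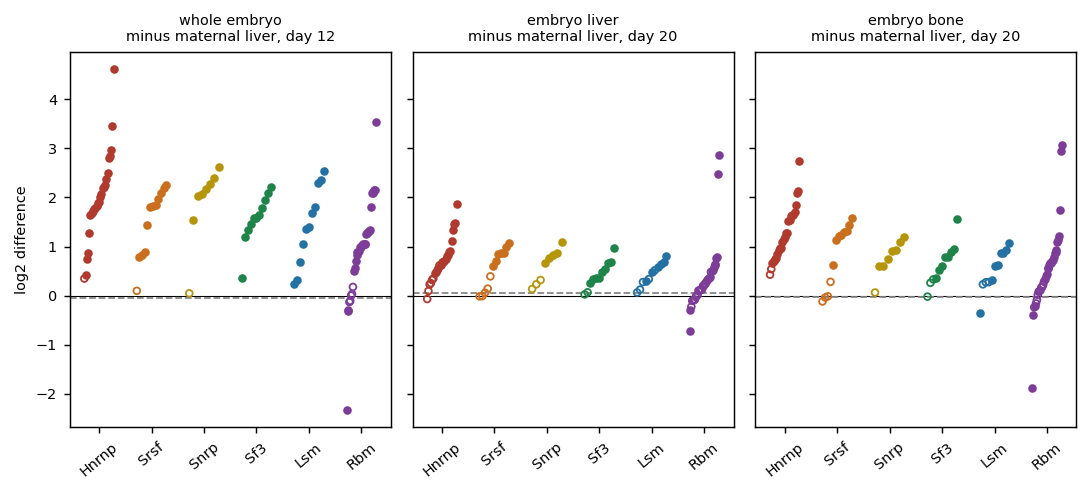
Log2 differences of all 101 probe sets by gene family for whole embryo, embryo liver and embryo bone, each minus maternal liver of the same day (filled points adjusted p under 0.05 by limma, open points not called, dashed line the median over all probe sets). Most points lie above the dashed line in each panel, with Rbm47 near -2 as the lowest in the first and last panels.

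Within maternal liver, 6 probe sets were lower at day 20 than at day 12 (5.94%, against 2.48% of all) and 1 was higher (against 1.99%). All 4 Hnrnpa3 probe sets were among the 6, with differences of -0.74 to -0.998, beside Hnrnpa2b1 1398883_at at -0.79 ± 0.16 and Srsf1 1374072_at at -0.76 ± 0.18. Hnrnpa3 encodes a close relative of the A1 and A2/B1 proteins. Its probe set 1370871_at read 11.02 in the RA liver of day 20 and 9.19, 9.67 and 9.51 in the control, EMD50 and EMD150 livers, against 10.96, 10.86, 10.78, 10.92 and 10.77 in the RA5, RA56, control, EMD50 and EMD150 livers of day 12. The RA liver of day 20 thus lay at the day 12 level, while the other 3 lay below it. Snrpd2, an Sm ring protein, was the gene called higher at day 20, at 0.58 ± 0.16 (adjusted p = 0.044), and leaving out 1 array gave 0 higher calls for 14 of the 22 arrays and 1 or 2 for the other 8. The lower calls were 2 without the control or EMD50 liver of day 20 or the control or EMD50 liver of day 12, 3 without the EMD150 liver of day 12, and 4 to 8 without any other single array.

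A small set of these genes was higher in the RA arrays. Over all strata, limma called 10 probe sets of 8 genes higher in RA than in control (9.9%, against 1.78% of all probe sets) and 0 lower (against 0.0567%), and 30 of the 101 had an unadjusted p under 0.05 (29.7%, against 12.5%). The median difference of all 101 was 0.03, against -0.02 over all probe sets, with 57 of 101 above 0. The Hnrnp family had a median of 0.27 with 19 of 25 above 0, and the other medians were 0.09 (Srsf), -0.11 (Snrp), -0.05 (Sf3), -0.02 (Lsm) and 0.01 (Rbm).

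Among the hnRNP genes, 3 of the 4 Hnrnpa3 probe sets were called, at 1.004 ± 0.24, 0.93 ± 0.19 and 0.66 ± 0.15 (SE; adjusted p = 0.039, 0.026 and 0.029), and the fourth stood at 0.69 ± 0.18 (adjusted p = 0.051). Probe set 1370871_at read 12.79 and 13.20 in the RA whole embryos, against 12.46 in control, and 12.32 in RA bone, against 10.95. It read 11.82 in RA embryo liver, against 10.54 in control, and 11.02 in RA maternal liver of day 20, against 9.19. In the day 12 maternal livers the RA values of 10.96 and 10.86 and the control value of 10.78 were close, and the EMD50 value of 10.92 lay between the RA values. Hnrnpc, which packages nascent transcripts, was higher by 0.53 ± 0.12 (adjusted p = 0.031). This rise was not particular to RA, as EMD150 lay above control by 0.33 ± 0.13 (limma's adjusted p = 0.22, not called). The EMD150 and RA arrays were close in maternal liver of day 20 (10.645 and 10.635, control 9.898) and embryo liver (11.279 and 11.412, control 10.767). In whole embryo EMD150 read 12.462, against 12.461 and 12.705 in RA. In bone EMD150 (10.75) lay near control (10.765).

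The Lsm genes called were 3 of the ring that binds U6 RNA. Lsm8, the subunit found only in the nuclear ring, was higher by 0.92 ± 0.20 (adjusted p = 0.027), Lsm5 by 0.79 ± 0.17 (0.026) and Lsm3 by 0.55 ± 0.13 (0.035). Lsm3 was also higher in EMD150 than in control, by 0.34 ± 0.14 (limma's adjusted p = 0.23, not called). In maternal liver of day 20 Lsm3 read 9.73 in EMD150 and 9.41 in RA, whereas in whole embryo, embryo liver and bone EMD150 lay below RA. Lsm8 read 10.04 and 10.91 in RA whole embryos, against 9.50 in control, 8.91 in RA embryo liver, against 7.51, and 9.06 in RA bone, against 7.70. In maternal liver it read 8.13 in the RA array of day 20, against 7.17 in control, and 7.63 and 7.73 in the RA arrays of day 12, against 7.49. Lsm5 read 9.78 and 10.16 in RA whole embryos, against 9.09 in control, 8.57 in RA embryo liver, against 7.25, and 8.69 in RA bone, against 7.54, and both RA maternal groups (7.32 at day 20, 7.204 and 7.11 at day 12) lay above their controls (6.72 and 6.91). The other subunits of that ring among the members gave -0.15 ± 0.13 (Lsm2), -0.02 ± 0.12 (Lsm4) and -0.10 ± 0.11 (Lsm7), with adjusted p = 0.75, 0.97 and 0.82. The difference between subunits was not tested.

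The remaining calls were Rbm15, an adaptor of the complex that methylates adenosine in RNA, at 0.61 ± 0.14, Rbm25, a regulator of alternative splicing, at 0.63 ± 0.15, and Srsf1 1374072_at at 0.69 ± 0.16, each with adjusted p = 0.035. Srsf1 is the founding SR protein, and its other probe set 1371581_at gave 0.27 ± 0.15 (adjusted p = 0.51). Rbm15 read 9.10 and 9.61 in RA whole embryos, against 8.66 in control, 8.68 in RA embryo liver, against 7.89, and 8.34 in RA bone, against 7.27. It read 7.94 in RA maternal liver of day 20, against 7.45 in control, and 7.94 and 7.93 in those of day 12, against 7.79, so that every RA array lay above its control. No Snrp or Sf3 probe set was called, and the leading ones were Snrpe at 0.48 ± 0.13 (adjusted p = 0.065) and Sf3b1 1390234_at at 0.52 ± 0.16 (adjusted p = 0.10).

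These calls rested on few arrays. The count of higher calls became 0 when any 1 of 8 arrays was left out, namely the control arrays of whole embryo, embryo liver, embryo bone and maternal liver of day 20, the RA arrays of embryo liver, bone and maternal liver of day 20, and the RA56 whole embryo, while it stayed between 9 and 14 without any 1 of the others. It was also 0 without the RA bone, RA maternal liver of day 20 and RA56 whole embryo arrays together, when 25 of the 101 still had an unadjusted p under 0.05 (against 7.54% of all probe sets, of which 0 were called) and Hnrnpa3 1370871_at stood at 0.60 ± 0.19, Lsm5 at 0.68 ± 0.20 and Lsm3 at 0.60 ± 0.15. The Hnrnp median was then 0.06 and that of all 101 was -0.03. Over all 38 alternatives run for it, the Lsm5 difference ran from 0.67 to 0.98 and its adjusted p from 0.0056 to 0.37. When those RA arrays were left out together, the RA5 whole embryo and the control bone were kept. Their hepatocyte lists stood at 8.61 and 8.72, against 8.55 in the RA56 whole embryo and 8.74 in RA bone. The part of the muscle and liver genes on the arrays left out or kept was not tested further.

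**Figure D3:**
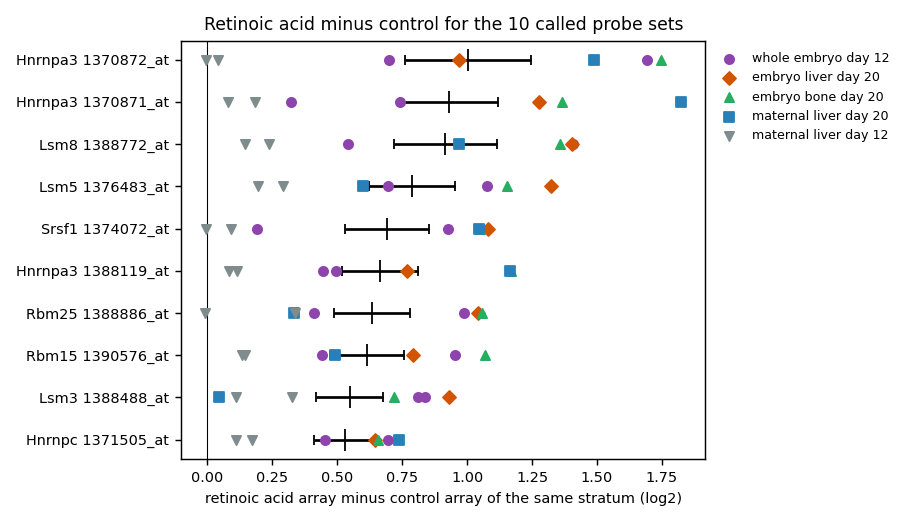
RA array minus control array of the same stratum (log2) for the 10 probe sets called over all strata, with 1 marker per RA array and the limma estimate with its SE as a black bar. The day 12 maternal livers lie nearest to 0 for most probe sets, and Hnrnpa3 1370871_at reaches 1.83 in maternal liver of day 20.

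By stratum, values at least 2-fold above control were found in every tissue of day 20 and on 1 of the day 12 whole embryo arrays. A value at least 2-fold above control on every RA array was found for 12 probe sets in embryo bone (11.9%, against 2.4% of all), 7 in maternal liver of day 20 (6.93%, against 1.54%) and 5 in embryo liver (4.95%, against 0.952%), and for 0 in whole embryo (against 0.252%) and 0 in maternal liver of day 12 (against 0.0252%). Members 2-fold lower on every RA array numbered 0 in all 5 strata, against 0.0378% of all probe sets in embryo liver, 0.139% in whole embryo, 0.183% in maternal liver of day 12, 0.265% in maternal liver of day 20 and 0.479% in bone. The day 20 strata have 1 RA and 1 control array each, so these counts have no replicate check, and at day 12 both RA arrays had to pass. Taken alone, the RA56 whole embryo held 5 members at least 2-fold above control (against 1.15% of all), which were Hnrnpa3 1370872_at (1.69) and 1374405_at (1.16), Lsm8 (1.41), Hnrnpu 1372823_at (1.18) and Lsm5 (1.07), and 1 at least 2-fold below (against 0.214%). The RA5 whole embryo held 0 above (against 1.01%) and 4 below (against 2.17%), and neither RA maternal liver of day 12 held any in either direction. In bone the list was Hnrnpa3 (4 probe sets, 1.11 to 1.75), Lsm8 (1.36), Rbm39 1398993_at (1.17), Lsm5 (1.16), Sf3b1 1390234_at (1.09), Rbm15 (1.07), Rbm25 (1.06), Srsf1 1374072_at (1.05) and, at the threshold itself, Snrpd3. In maternal liver of day 20 it was Hnrnpa3 (4 probe sets, 1.06 to 1.83), Hnrnpa2b1 1398883_at (1.28), Sf3b1 1390234_at (1.15) and Srsf1 1374072_at (1.04), and in embryo liver Lsm8 (1.40), Lsm5 (1.32), Hnrnpa3 1370871_at (1.28), Srsf1 1374072_at (1.08) and Rbm25 (1.04). For every probe set of the bone list, the EMD50 bone array with the high GAPDH 3' minus 5' difference lay between control and RA. Lsm8 read 7.698, 8.702 and 9.057 in control, EMD50 and RA bone, and Hnrnpa3 1374405_at read 9.785, 10.776 and 10.894. The part of RNA quality in these values was not tested.

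Every RA array lay above every other array of its stratum in at least 4 of the 5 strata for 14 probe sets (13.9%, against 4.56% of all), and in all 5 for Lsm5, Lsm8 and Rbm15 (2.97%, against 0.649%). This rule was chosen after the values by stratum were seen. The 14 were these 3, all 4 Hnrnpa3 probe sets, Hnrnpa1 1375612_at, Hnrnpa2b1 1398883_at, Rbm25, Rbm39 1398993_at, Snrpb2, Snrpe and Srsf1 1374072_at. A single probe set, Srsf10 1380269_at, lay below in at least 4 strata (0.99%, against 3.38%). Outside whole embryo it read no more than 6.22 on any array, and the gaps were small. In embryo liver RA stood at 6.09, against 6.11 in EMD150, and in bone at 5.90, against 6.05 in EMD50.

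With a comparison added after the values by stratum were seen, limma called 12 members higher in RA at day 20 (against 2.54% of all) and 0 in either direction at day 12, as of all probe sets, with 7 members at an unadjusted p under 0.05 (against 4.44% of all). The test of day 20 against day 12 called 0 of all 15866 probe sets, with 11 members at an unadjusted p under 0.05 (against 7.46% of all), and 80 of the 101 differences were above 0, with a median of 0.24 against 0.01 over all probe sets. Hnrnpa3 1370871_at had an effect of 1.49 at day 20 and 0.33 at day 12, a difference of 1.16 ± 0.28 (adjusted p = 0.63).

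In the conceptus (whole embryo, embryo liver and bone together) 10 probe sets of 10 genes were called higher in RA than in control (9.9%, against 1.81%), and 0 lower (against 0.0945%). These were Hnrnpa3 1370872_at (1.31 ± 0.29), Lsm8 (1.22 ± 0.24), Lsm5 (1.09 ± 0.18), Rbm25 (0.91 ± 0.15), Srsf1 1374072_at (0.87 ± 0.22), Rbm15 (0.86 ± 0.15), Lsm3 (0.83 ± 0.14), Rbm39 1398993_at (0.78 ± 0.17), Snrpb2, a protein of the U2 particle (0.73 ± 0.17), and Hnrnpa1 1375612_at (0.71 ± 0.14). In maternal liver 0 members were called (against 0.0756% in either direction), with 6 at an unadjusted p under 0.05 (against 3.15% of all). The test of maternal liver against conceptus called 0 of all 15866 probe sets, with 11 members at an unadjusted p under 0.05 (against 2.93% of all). Lsm3 had the smallest p in that test, with maternal minus conceptus at -0.68 ± 0.21 (adjusted p = 0.9999).

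In the day 12 whole embryo alone limma called 0 members (against 0.0315% of all in either direction), with 22 at an unadjusted p under 0.05 (against 11.2%). Its 2 residual degrees of freedom come from the RA pairs, and with 1 of these arrays left out the count was 62 (RA56 embryo), 21 (RA5 embryo) or 2 (either RA maternal liver). The leading genes went both ways. Hnrnpu 1372823_at was 9.62 and 9.83 in RA, against 8.65 in control, and Lsm3 was 11.52 and 11.55, against 10.71. Srsf10, an SR-like protein, had negative differences that were not called: 1393946_at read 7.08 and 6.97 in RA, against 8.001 in control, and 1380269_at read 6.51 and 6.45, against 7.37 (adjusted p = 0.16 and 0.12). The EMD50 and EMD150 embryos were also below control, at 6.90 and 7.15 for 1393946_at and at 6.86 and 6.79 for 1380269_at, so the control embryo stood alone as the high array. The median difference from control over the 101 was -0.38 in the RA5 embryo and -0.03 in the RA56 embryo. In maternal liver of day 12 limma also called 0 members (against 0.12%), with 1 at an unadjusted p under 0.05 (against 0.996%), namely Snrpe at 0.53 ± 0.21.

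EMD 82571 gave no called member. For EMD150 against control limma called 0 of the 101, as it did of all 15866 probe sets, with 20 members at an unadjusted p under 0.05 (19.8%, against 18.4% of all). The median was -0.17, against 0.01 over all probe sets, with 26 of 101 above 0, and it was negative in each of the 5 strata (-0.28 in whole embryo, -0.13 in embryo liver, -0.13 in bone, -0.09 and -0.07 in maternal liver of days 20 and 12). After quantile normalization of the arrays it was -0.07, with 37 of 101 above 0. The smallest p belonged to Rbm39 1381967_at, at -0.50 ± 0.13, and Rbm7 1376503_a_at, of the nuclear exosome targeting complex, at 0.28 ± 0.08 (adjusted p = 0.19 each). For EMD50 limma called 0 of all 15866 probe sets, with 2 members at an unadjusted p under 0.05 (1.98%, against 1.59% of all) and a median of 0.02, against 0.01. By stratum the EMD50 medians were -0.26 in whole embryo (16 of 101 above 0), -0.004 in embryo liver, and 0.12 and 0.03 in maternal liver of days 20 and 12. The negative whole embryo median was thus not particular to EMD150, and the RA5 embryo stood at -0.38 and the RA56 embryo at -0.03. All were set against the same control embryo, which had the highest SD over all probe sets (1.83), and its part was not tested. In embryo bone the medians were 0.15 at EMD50 and -0.13 at EMD150, and the EMD50 bone array is the one with the high GAPDH 3' minus 5' difference.

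Set directly against EMD150, RA had 29 probe sets of 20 genes called higher (28.7%, against 7.89% of all) and 2 lower (against 6.49%), from the same RA arrays as above. The median was 0.21, against -0.02, with 76 of 101 above 0, and after quantile normalization of the arrays it was 0.09, against -0.03, with 63 above 0 and 19 called higher. The EMD150 array had the lowest SD over all probe sets in 4 of the 5 strata, and the part of this narrower spread was not tested. The Hnrnp family had the highest median of the 6 families: all 25 probe sets had a difference above 0, 15 were called and the median was 0.47, whereas after quantile normalization 20 were above 0 with a median of 0.34. The medians of Srsf and Rbm were 0.32 and 0.20, and 0.09 and 0.07 after quantile normalization. Under that normalization the medians of Lsm, Sf3 and Snrp turned to -0.05, -0.06 and -0.005, from which no direction is drawn for those families. The largest differences were Hnrnpa3 1370872_at at 1.26 ± 0.24, Lsm5 at 1.08 ± 0.17, Lsm8 at 1.03 ± 0.20, Srsf1 1374072_at at 0.94 ± 0.16, Rbm15 at 0.88 ± 0.14 and Sf3b1 1390234_at at 0.80 ± 0.16. Genes called here but not against control included Hnrnpa2b1 (0.66 ± 0.14 and 0.64 ± 0.14), Hnrnpa0 (0.66 ± 0.16), Hnrnpa1 (0.64 ± 0.14 and 0.56 ± 0.13) and Rbm39 1398993_at (0.61 ± 0.15). Lsm11, of the U7 particle that processes histone transcripts, was lower at -0.22 ± 0.07, as was Snrpn at -0.24 ± 0.08. Leaving out single arrays moved the higher calls between 13 and 45, with 13 without the EMD150 bone or the RA embryo liver array, 15 without the EMD150 embryo liver array and 45 without the RA5 whole embryo, and 0 were left without the 3 RA arrays named above. The lower calls were 0 without the EMD150 array of bone, embryo liver or maternal liver of day 20, the RA array of bone or embryo liver, the RA56 whole embryo or the RA5 maternal liver, and 4 without the control or RA5 whole embryo.

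**Figure D4:**
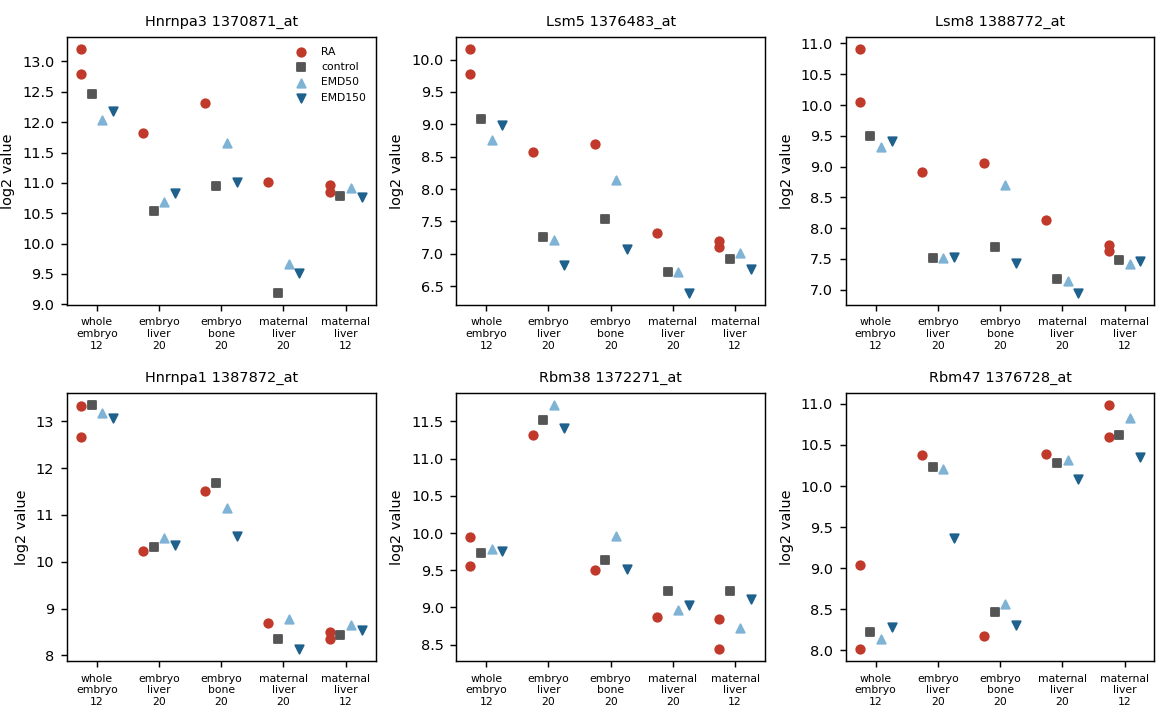
Log2 values on each array for 6 probe sets in each tissue at the gestational day given (red circles RA, grey squares control, light and dark blue triangles EMD50 and EMD150). The RA arrays of Lsm5 and Lsm8 lie above all others of their stratum, Rbm38 is highest in embryo liver at 11.32 to 11.72, and Rbm47 is lowest in whole embryo and bone.

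Probe sets of 1 gene often differed. Of the 74 genes, 18 had 2 to 4 probe sets (45 in all). Between RA and control their probe sets had the same sign in 9 of the 18 genes, against 14 between RA and EMD150 and 16 between whole embryo and maternal liver of day 12. The median gap between the highest and lowest probe set of a gene was 0.27 for RA against control and 0.56 for whole embryo against maternal liver. Correlations between probe sets over the 22 arrays, after each stratum's mean was removed, are given as a description, since the probe sets share arrays. Their lowest value per gene had a median of 0.40, all pairs were above 0.5 in 8 genes and a pair was below 0 in 5 genes.

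Hnrnpa3 was the most coherent, with correlations of 0.89 to 0.96 over its 6 pairs and RA differences of 0.66 to 1.004. Srsf2 (0.82), Srsf1 (0.78) and Hnrnpa2b1 (0.77) followed. The Hnrnpa3 probe sets 1370871_at, 1370872_at and 1388119_at were annotated to the same source sequence, and only 1374405_at to another. Their agreement is thus not that of separately designed probe sets. Rbm39, a splicing coactivator with 4 probe sets, was split: 1398993_at was at 0.54 ± 0.15 in RA against control and 1379737_a_at at -0.29 ± 0.12 (adjusted p = 0.066 and 0.31), and correlations ran from -0.32 to 0.72. Probe set 1398993_at read 11.94 in RA bone, against 10.76 in control, where 1379737_a_at read 9.34, against 9.84. Both were higher in whole embryo than in maternal liver, by 0.89 ± 0.16 and 1.28 ± 0.13.

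Other splits had 1 probe set near 0 and 1 above. Sf3b1, the branch-point subunit, gave 0.52 ± 0.16 at 1390234_at and -0.04 at 1389840_at. Hnrnpu, a scaffold-associated protein, gave 0.54 ± 0.20 at 1372823_at and -0.07 at its lowest, and Hnrnpa1 ran from -0.09 at 1387872_at to 0.51 at 1375612_at. Srsf10 had correlations of -0.54 to 0.75, where the third probe set, 1392868_at, read 5.49 to 5.76 on every array. Rbm24, Lsm12 and Rbm15b had a pair at -0.38, -0.27 and -0.21.

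**Figure D5:**
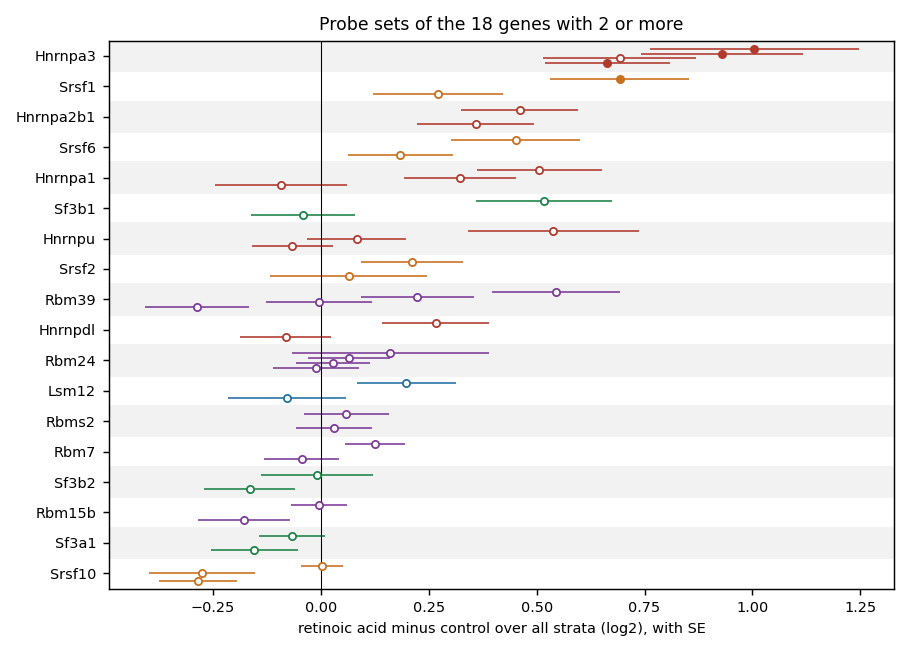
RA minus control over all strata (log2) with its SE for each probe set of the 18 genes with 2 or more, 1 line per probe set and 1 row per gene (filled points adjusted p under 0.05 by limma). The 4 Hnrnpa3 probe sets lie together at 0.66 to 1.004, whereas Rbm39 runs from -0.29 to 0.54.

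Other spliceosome and RNA-binding genes were followed through a list of 136 genes with other names, of which 104 were measured by 131 probe sets. Between whole embryo and maternal liver of day 12, 112 were called higher (85.5%, against 35.5% of all probe sets) and 7 lower (5.34%, against 34.3%). Between RA and control 6 were called higher (4.58%, against 1.78%) and 0 lower (against 0.0567%): Fxr1, a relative of the fragile X protein, at 1.02 ± 0.23, Pcbp2, a poly(C)-binding protein, at 0.88 ± 0.18, U2surp at 0.83 ± 0.17, Clk1, a kinase of SR proteins, at 0.76 ± 0.18, the helicase Ddx5 at 0.64 ± 0.15 and Cwc15 at 0.57 ± 0.13. Between RA and EMD150, 30 were called higher (22.9%, against 7.89%) and 1 lower (0.763%, against 6.49%).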

How the data were processed

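Values were used as deposited by the authors: log2 probe set signals, made with RMA per the submitters' processing notes, which give no version. Of 15923 rows, 57 array controls were left out. Symbols came from the platform's probe table, and the Entrez identifiers of all 101 members were found in RefSeq (GRCr8). With limma 3.58.1 in R 4.3.3, a linear model with stratum as a block and treatment as a factor was fitted to all 22 arrays (14 residual degrees of freedom), moderated with an intensity trend. A model with separate effects for maternal liver and conceptus left 11, and the day 12 model of 10 arrays left 2. Tests were two-sided with Benjamini-Hochberg adjustment over all 15866 probe sets, and a call is an adjusted p under 0.05. The number of arrays limits the precision. Named are up to 15 called members per direction by size between treatments (10 between tissues), the 5 with the smallest p where fewer were called, and genes whose probe sets were compared. Alternatives changed the prior, scaling, filter, array weights, arrays, strata and probe sets per gene. Members, lists and comparisons were chosen with earlier results of these data known. The fits were tested on simulated data.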

Additional observations from a re-analysis of the deposited data

How the results depend on the processing

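Precision is limited by 1 array per treatment in most strata, and an SD over a stratum spans treatments. Higher calls between tissues stayed within 1.5 times without single arrays. Against maternal liver they ran from 89 to 91 (whole embryo), 45 to 59 (embryo liver) and 72 to 77 (bone), and for bone against embryo liver from 31 to 44. Embryo liver against maternal liver had 1 to 2 lower calls without single arrays, and 1 without the RA bone, RA maternal liver of day 20 and RA56 whole embryo arrays. For RA against control the 10 higher calls became 0 to 14 without single arrays, 17 with array weights, 0 without those 3 RA arrays, 0 without whole embryo, maternal liver of day 20 or embryo liver, and 1 without bone. For RA against EMD150 the 29 higher and 2 lower calls became 13 to 45 and 0 to 4 without single arrays, 19 and 1 after quantile normalization, 0 and 0 without the 3 RA arrays, and 17 higher with 1 probe set per gene. Without whole strata the higher calls were 8 (maternal liver of day 20), 0 (embryo liver) and 15 (bone), and the lower calls were 4 without whole embryo and 0 without any of the others. Maternal liver of day 20 against day 12 had 0 to 2 higher and 2 to 8 lower calls without single arrays, 2 higher after quantile normalization, 4 higher and 16 lower with array weights, 0 higher without the 3 RA arrays and 2 lower with 1 probe set per gene. RA in maternal liver against conceptus had 3 calls with array weights. RA in the day 12 embryo had 0 to 62 without single arrays, where 1 residual degree of freedom was left without an RA array. The cause was not tested. Counts for both EMD 82571 doses against control stayed at 0 under every alternative run. The fits compare treatments within strata. The labels do not say that the codes RA5 and RA56 mark shared dams, and over all probe sets the RA5 minus RA56 differences of whole embryo and maternal liver correlated at -0.14. With the array code as a replicate block, RA5 and RA56 apart and averaged (chosen after seeing the data), higher calls were 0 for RA against control, 15 for RA against EMD150 (0 lower) and 0 for maternal liver of day 20 against day 12, and all other counts stayed within 1.5 times. With the codes crossed in maternal liver of day 12, whole embryo against maternal liver had 90 higher and 3 lower calls.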
